A study of Drosophila melanogaster with 8 samples.

Results

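The circadian clock of the fly head was described here through 10 genes, per, tim, vri, Pdp1, Clk, cyc, cry, cwo, dbt and sgg. The list was fixed by gene name but chosen with earlier results of these data known. Its counts beside the shares of all tested probe sets are therefore a description. Of the 10, 9 had a probe set with a single gene symbol on the array, tim and cwo had 2 each, and dbt was listed under its current symbol dco. For sgg, the kinase gene shaggy, no single-symbol probe set was found, so sgg was not analysed here. The 11 probe sets all passed the filter on low signal, among 11261 tested of 18952, and the measured clock genes are 9 of 11982 genes with such a probe set. Where a gene had 2 probe sets, the one of higher mean signal stood for the gene in every count and is called the first.

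RNA was taken from heads of adult Drosophila melanogaster, both sexes together, on 8 arrays in 4 groups of 2. Control flies were w1118, with neither driver nor transgene. Flies of the remaining 3 groups bore Hsp-GAL4, in which a heat-shock promoter drives GAL4 broadly, and one transgene each, UAS-EYA-wildtype in the first group, UAS-EYA-D493N in the next and UAS-EYA-E728Q in the last. EYA is a transcriptional coactivator that is also a protein phosphatase, and the series' design gives D493N reduced and E728Q little or no phosphatase activity. All 4 groups, controls included, were raised at 25 C, spent 1 h at 37 C and recovered for 3 h at 25 C. Fly age, the light regime and the hour of collection are not given in the labels used here. A difference in genotype and a difference in the hour of collection therefore cannot be told apart, and neither can the transgene and the strain background, since the controls lack the driver as well. Nothing in the labels says that both samples of a group came from separate cultures, so the p-values cover the spread between the samples only, and that spread may be technical.

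The fly clock is built from interlocked feedback loops. CLOCK (Clk) and CYCLE (cyc) form a dimer that binds E-box elements and activates per, tim, vri, Pdp1 and cwo, whose transcripts peak around the early to middle night. PERIOD and TIMELESS enter the nucleus and inhibit that dimer, VRILLE represses Clk, PDP1 activates it, and CLOCKWORK ORANGE represses E-box genes. Clk and cry transcripts peak near the opposite time of day, while cyc and dbt transcripts are not known to cycle. In heads, the cells that express clock genes include photoreceptors, glia and a small number of pacemaker neurons.

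Over tested probe sets, which are not independent replicates, the pair of arrays of a group correlated with r = 0.981 (D493N) to 0.991 (wild-type EYA). Act5C, an actin gene whose 3' to 5' signal ratio follows RNA integrity, gave ratios of 4.15 to 4.35 on the control and wild-type EYA arrays, 4.84 and 5.11 on E728Q arrays, and 5.63 and 6.26 on D493N arrays. Of 4 photoreceptor markers inaD was called, higher with E728Q, and of 4 neuronal markers 0 were called. The shares of all tested probe sets called would give 0.456 to 0.562 higher and 0.438 to 0.556 lower among 4. The summed signal of the photoreceptor markers was 75074 to 76989 in control and 69426 to 92139 over the EYA arrays, and that of 5 glial markers 30344 to 31778 and 28718 to 33078. Of the glial markers moody rose and the GABA transporter gene Gat fell in each EYA group, and repo and Gs2 also fell with D493N. Among 5 the shares would give 0.57 to 0.702 higher and 0.547 to 0.695 lower. Of 7 fat body markers 1 rose and 4 or 5 fell, where the shares would give 0.798 to 0.983 higher and 0.766 to 0.973 lower. Their summed signal was 89687 to 96050 in control and 69196 to 91457 over the EYA arrays. Of 3 muscle markers 0 were called, but their summed signal was 17225 on D493N replicate 1 and 33672 on D493N replicate 2, where the control arrays had 28799 and 28991 and the other EYA arrays 25643 to 31204. Among the clock genes D493N replicate 1 was the higher of its pair for Clk, cyc and cry and the lower for the rest. It was also the lower for Usp8 and Slob. Of 3 female germline markers 2 were tested and 0 called, with sums of 135 to 809 in control and 199 to 1319 over the EYA arrays. For the 3 muscle and 2 germline markers the shares would give 0.328 to 0.421 and 0.219 to 0.281 in each direction. Counts of 0 in such short lists therefore lie near the background. The part of RNA integrity or of these markers in the clock results was not tested. In whole heads, fewer cells of a type and less RNA per cell cannot be told apart.

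Clock genes moved upward or showed no called change. Here a probe set was called at a Benjamini-Hochberg adjusted p under 0.05 in limma, over all tested probe sets. With wild-type EYA 5 of 9 clock genes were higher and 0 lower, against 11.4% and 10.9% of all tested probe sets. With D493N 5 were higher and 0 lower, against 14.0% and 13.9%, and with E728Q 4 were higher and 0 lower, against 11.8% and 11.7%. Where 3 values are given together from here on, they follow the order wild-type EYA, D493N, E728Q. At an unadjusted p under 0.05, 5, 5 and 5 clock genes were higher, against 16.3%, 18.8% and 17.4% of tested probe sets, and 0, 0 and 1 were lower, against 17.5%, 19.7% and 17.3%. The median log2 fold change of the 9 genes was 0.38, 0.29 and 0.33, where that of all tested probe sets was -0.03, -0.02 and 0.00. Averaged over the EYA groups, 6 clock genes were higher and 0 lower, against 15.4% and 15.6%. Signals on all 6 EYA arrays lay above both control arrays for per, vri and cry, 3 of 9, and below both for 0 of 9, against 18.0% and 18.4% of tested probe sets. Leaving out control replicate 1 lowered the counts to 3 for wild-type EYA, 2 for E728Q and 3 for the mean. With E728Q 2 were called when either E728Q array was left out. The comparisons share the control arrays, so they are not independent of each other.

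**Figure D1:**
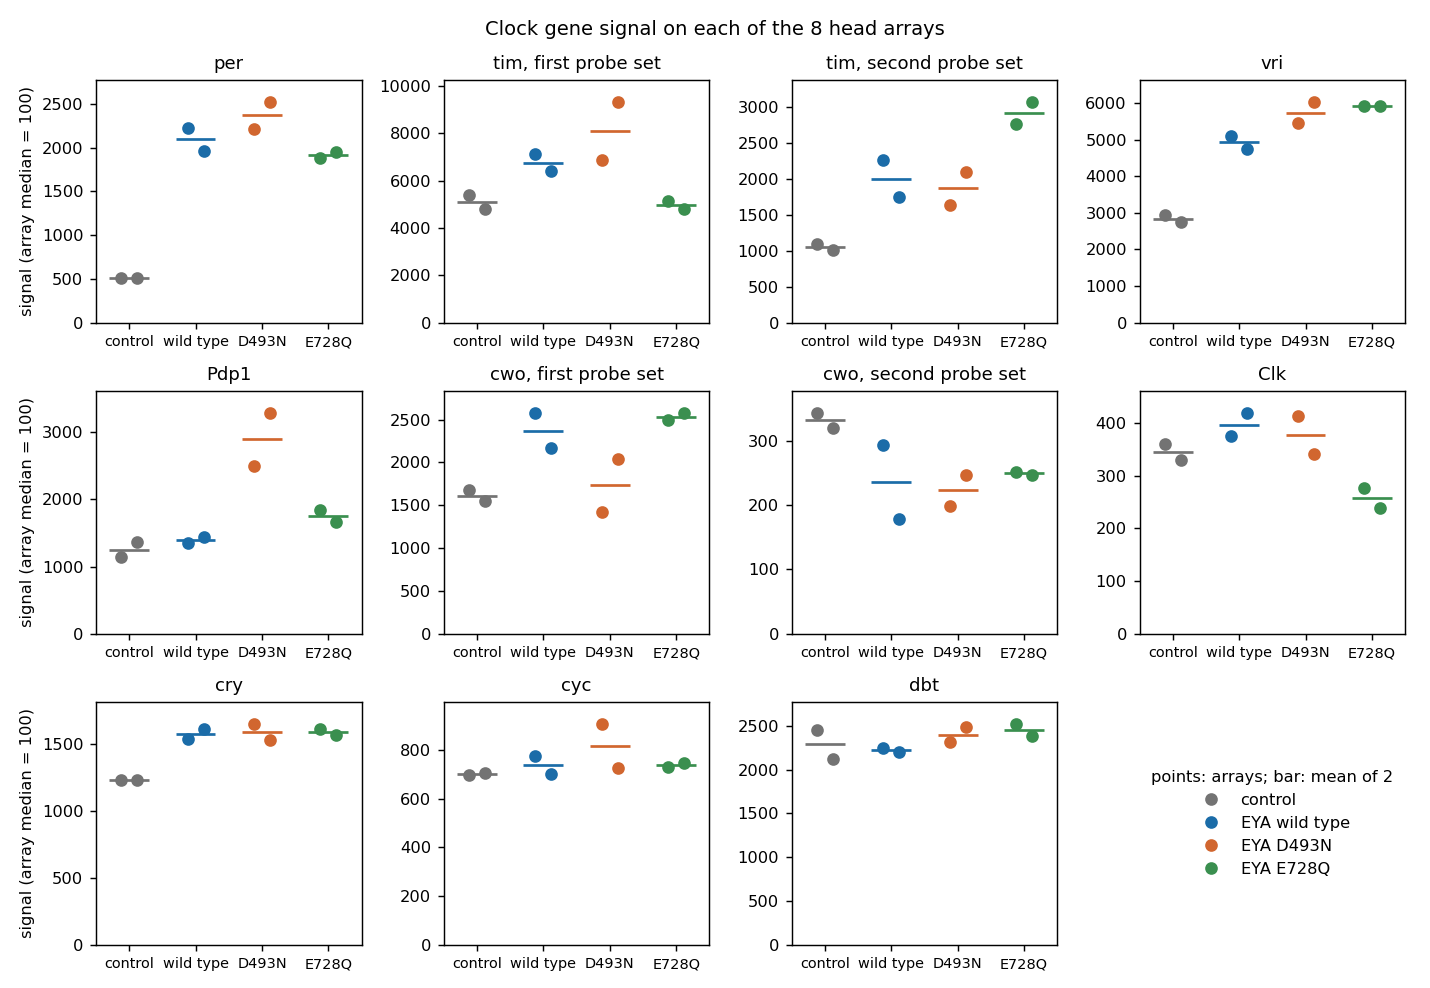
Deposited signal of each clock gene probe set on each of the 8 arrays, with the array median at 100, a point per array and a bar at the mean of each group of 2. The per signal lies near 512 on both control arrays and at 1882 or above on all EYA arrays, Pdp1 is highest with D493N, and the tim probe sets order the groups differently.

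**Figure D2:**
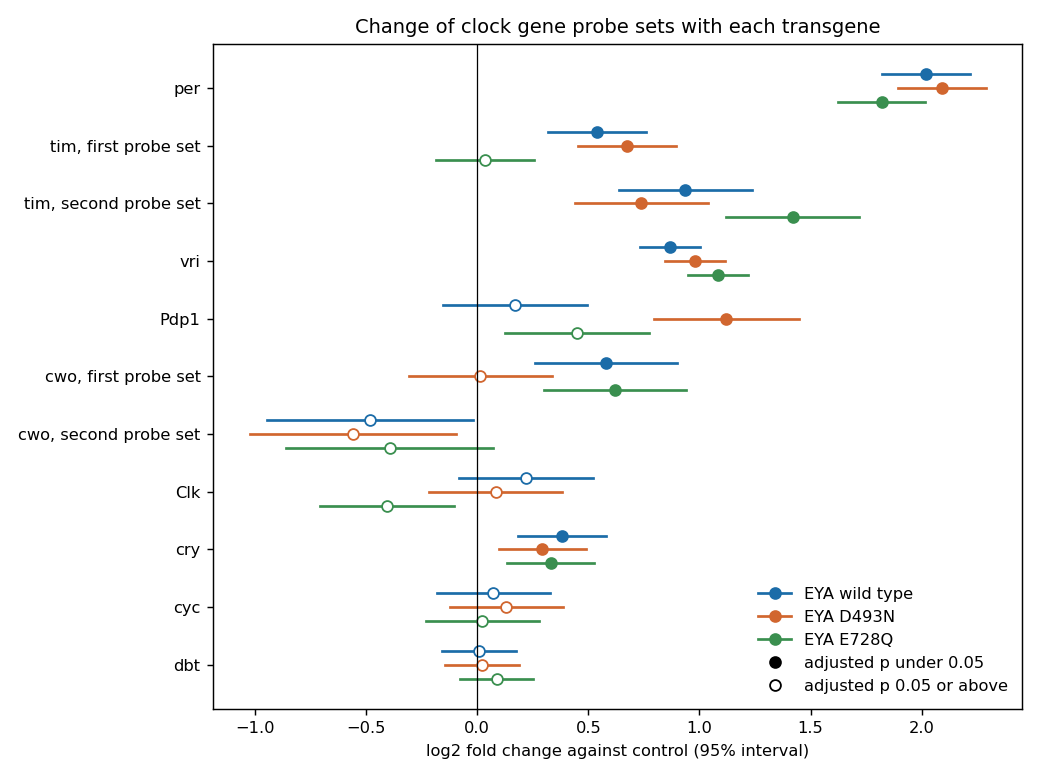
Log2 fold change against control for the 11 clock gene probe sets and each transgene, with 95% intervals from limma and filled points at an adjusted p under 0.05. The largest changes are those of per, from 1.82 to 2.09, and cyc and dbt lie near 0.

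The period gene per, whose product is the inhibitor of CLOCK and CYCLE, had the largest change of the list. Its signal was 512 on both control arrays, 2230 and 1963 on wild-type EYA arrays, 2213 and 2525 on D493N arrays, and 1882 and 1948 on E728Q arrays. Every EYA array was far above both controls, and the EYA groups lay close together. The log2 fold change was 2.02 (SE 0.0866, adjusted p = 2.17e-06) with wild-type EYA, 2.09 (adjusted p = 1.4e-06) with D493N and 1.82 (adjusted p = 3.59e-06) with E728Q. In rank by absolute change these placed per at 120, 147 and 169 of the 11261 tested probe sets. Between the transgenes per was not called, with a log2 difference of -0.27 for E728Q against D493N (95% interval -0.47 to -0.08, adjusted p = 0.257). The call of per against control held under all 17 alternatives, with log2 fold changes from 1.68 to 2.17.

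The nearest tested genes on one side of per rose with it. Gene order came from the Release 6 plus ISO1 MT annotation, and for each clock gene the 5 nearest tested genes on either side were read. Of the 10 neighbours of per, 4 were higher in each EYA group, dyw was lower with both mutants, and no other neighbour was lower, against the background shares above. The 4 were not the same genes throughout, and only CG2652 and HLH3B were called higher in every EYA group. These nearest tested genes on one side are named here after their values were seen. CG2652 had signals of 6.62 and 18.6 in control and 194 to 337 on the EYA arrays. Its log2 fold change was 3.58, 3.12 and 3.38 (adjusted p = 1.97e-05, 3.3e-05 and 2.58e-05), and its size depends on the pseudocount, with values of 1.59 to 4.44 over the alternatives. HLH3B, which encodes a basic helix-loop-helix protein, went from 78.6 and 49.6 in control to 311 to 520, a change of 2.34, 2.48 and 2.05 (adjusted p = 0.000101, 6.16e-05 and 0.000213). On the other side the nearest tested gene, dyw, stood at 1510 and 1018 in control, at 858 to 873 with wild-type EYA and at 390 to 578 with the mutants. The dyw log2 fold change was -0.49 (adjusted p = 0.0674), -1.19 (0.000866) and -1.44 (0.000376), and on that side only Ugalt was called higher, with D493N (0.40) and E728Q (0.41). Around the other 8 measured clock genes, 0 to 3 of the 10 neighbours were higher and 0 to 2 lower in each comparison. The shares of all tested probe sets were 11.4% to 14.0% higher and 10.9% to 13.9% lower. With wild-type EYA, cry (3 higher, 1 lower) and cwo (2 higher, 2 lower) each had 4 called neighbours, as per did (4 higher, 0 lower). Large changes were not limited to per, as these genes, named after their values were seen, also show. Near cwo jumu rose by 2.02, 2.22 and 1.79 and CG6465 had -1.19, -1.68 and -1.17. Near Pdp1 lncRNA:CR32368 rose by 2.9, 2.97 and 3.02, and all of these changes were called. The transgenes and a strain difference near per cannot be told apart here.

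**Figure D3:**
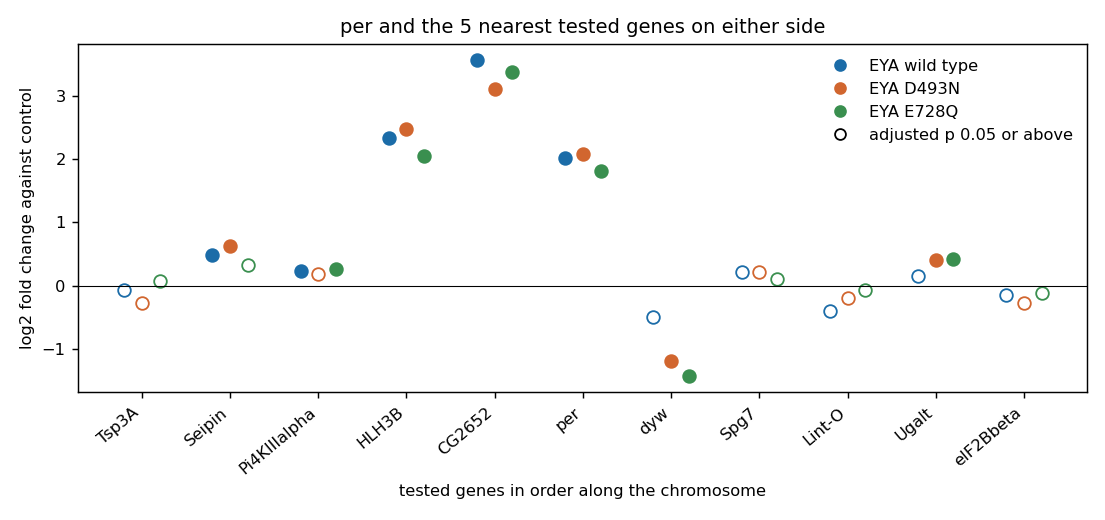
Log2 fold change against control of per and the 5 nearest tested genes on either side, in their order along the chromosome, for each transgene, with open points at an adjusted p of 0.05 or above. per, CG2652 and HLH3B rose by 1.82 or more, and dyw on the other side lies below 0.

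The timeless gene tim, partner of per, was read by 2 probe sets that ordered the groups differently. On the first (1634188_a_at) the signals were 5417 and 4792 in control, 7134 and 6402 on wild-type EYA arrays, 6865 and 9340 on D493N arrays, and 5158 and 4800 on E728Q arrays. The wild-type and D493N arrays were above both controls, and the E728Q arrays overlapped them. Fold changes on the log2 scale were 0.54 (SE 0.0966, adjusted p = 0.00398), 0.67 (adjusted p = 0.000964) and 0.04 (adjusted p = 0.834). On the second (1631468_a_at) the signals were 1091 and 1009 in control, 2263 and 1747 on those with wild-type EYA, 1646 and 2102 on those with D493N, and 2774 and 3078 on those with E728Q. Here the E728Q arrays were the highest of all, with no overlap between any EYA array and control. This gave log2 fold changes of 0.94 (SE 0.132, adjusted p = 0.00109), 0.74 (adjusted p = 0.00315) and 1.42 (adjusted p = 0.00011). The rise of the first probe set with wild-type EYA missed the threshold on the deposited values without quantile normalization (0.41, adjusted p = 0.0675). For the mean of the EYA groups it was 0.42 (adjusted p = 0.00376), a call lost without control replicate 2 (adjusted p = 0.0517). With the mean of the tim probe sets in place of the first, the E728Q value was 0.73 and called (adjusted p = 0.00135), beside 0.74 with wild-type EYA and 0.71 with D493N.

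The difference between the tim probe sets was itself tested, in a limma fit chosen after these values were seen. It ran on the log2 signal of the second minus that of the first probe set, over all 748 genes with at least 2 tested probe sets. With E728Q against control the difference was 1.38 (SE 0.151, adjusted p = 0.00317), called under all 16 alternatives, where 6.82% of the genes were called. With wild-type EYA it was 0.40 (95% interval 0.04 to 0.75, adjusted p = 0.2) and with D493N 0.06 (95% interval -0.29 to 0.42, adjusted p = 0.824), with 4.95% and 5.08% of genes called. For E728Q against D493N the difference was 1.32 (adjusted p = 0.0347), and tim was itself the 1 gene called, 0.134% of the genes. That call was lost under 11 of the 16 alternatives, the omission of any array but E728Q replicate 1 among them. For E728Q against wild-type EYA it was 0.99 (adjusted p = 0.0529, 0.134% called). The sources used here do not give the transcripts that each probe set covers, and tim is known to give several by alternative splicing.

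**Figure D4:**
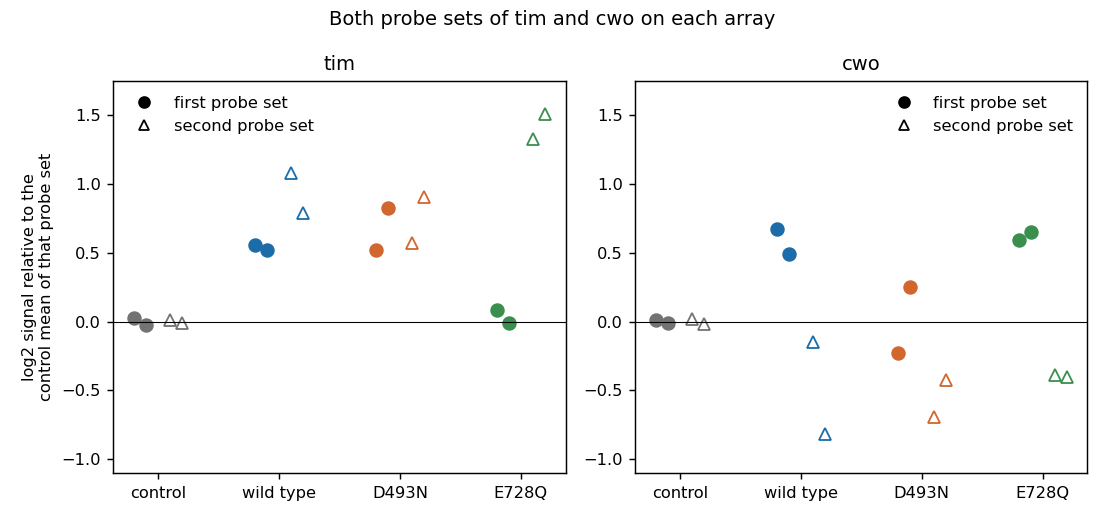
Log2 signal of the first (filled circles) and the second (open triangles) probe sets of tim and of cwo on each array, each relative to its own mean over the control arrays. With E728Q the second tim probe set is raised while the first lies near 0, and the cwo probe sets lie on opposite sides of 0 with wild-type EYA and E728Q.

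The repressor gene vri rose by a similar amount with each transgene. Pdp1, the activator gene that opposes it at Clk, was called higher against control with D493N alone of the transgenes. The vri signals were 2937 and 2748 in control, 5119 and 4745 on wild-type EYA arrays, 5457 and 6043 on D493N arrays, and 5933 and 5929 on E728Q arrays. All EYA arrays exceeded the controls, in the order wild type, D493N, E728Q, with the mutants' arrays interleaved. The log2 fold change of vri was 0.87 (SE 0.0593, adjusted p = 2.12e-05), 0.98 (adjusted p = 1.04e-05) and 1.08 (adjusted p = 6.66e-06), a call kept under all 17 alternatives. The steps between transgenes were not called, the largest being 0.21 for E728Q against wild-type EYA (95% interval 0.08 to 0.35, adjusted p = 0.194).

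For Pdp1 the signals were 1146 and 1362 in control, 1346 and 1436 on wild-type EYA arrays, 2505 and 3289 on D493N arrays, and 1846 and 1670 on E728Q arrays. The D493N arrays were the highest, E728Q was intermediate and wild type overlapped the controls. Its log2 fold change was 1.12 with D493N (SE 0.143, adjusted p = 0.000512), kept under all 17 alternatives. It was 0.17 with wild-type EYA (95% interval -0.16 to 0.50, adjusted p = 0.458) and 0.45 with E728Q (adjusted p = 0.0522). D493N against wild-type EYA, where 1.15% of probe sets were called, gave 0.95 for Pdp1 (adjusted p = 0.0196), the only clock gene called between transgenes. That call was lost when an array of the wild-type group (adjusted p = 0.206 and 0.134) or of the E728Q group (0.0515 and 0.0511) was left out, with log2 values of 0.87 to 1.03. It was also lost in the fit of these groups alone (0.0993) and without the variance trend (0.0984). The E728Q value against control passed the threshold without D493N replicate 1 (adjusted p = 0.0124) or 2 (0.0125) and without control replicate 2 (0.61, adjusted p = 0.0428). For the mean of the EYA groups Pdp1 had 0.58 and was called (adjusted p = 0.00518), but without control replicate 1 it had 0.41 and the call was lost.

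The repressor gene cwo, like tim, gave unlike answers from its 2 probe sets. On the first (1623277_at) signals were 1679 and 1548 in control, 2579 and 2164 on wild-type EYA arrays, 1425 and 2039 on D493N arrays, and 2497 and 2573 on E728Q arrays. Wild-type and E728Q arrays were above control, and the D493N arrays fell on either side of it. In log2 terms the changes were 0.58 (SE 0.141, adjusted p = 0.0178), 0.01 (adjusted p = 0.958) and 0.62 (adjusted p = 0.0126). With D493N leaving out replicate 1 of that group gave 0.26 and leaving out replicate 2 gave -0.23, neither called (adjusted p = 0.061 and 0.081). The call with wild-type EYA was lost without control replicate 1 or 2 or wild-type replicate 1 (adjusted p = 0.0906, 0.0948 and 0.131). The call with E728Q was lost without control replicate 1 or 2 or E728Q replicate 1 or 2 (adjusted p = 0.07, 0.0748, 0.0564 and 0.0802). That for the mean of the EYA groups, 0.40 (adjusted p = 0.0262), was lost without control replicate 1 or 2 (0.141 and 0.152), wild-type replicate 1 (0.0642) or E728Q replicate 2 (0.0578).

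On the second cwo probe set (1631722_at) signals were 343 and 321 in control, 294 and 178 on wild-type EYA arrays, 198 and 247 on D493N arrays, and 252 and 247 on E728Q arrays. All EYA arrays were below both controls, but the log2 fold changes of -0.48, -0.56 and -0.39 were not called (adjusted p = 0.132, 0.0739 and 0.21). With wild-type EYA the value was -0.82 and called without wild-type replicate 1 (adjusted p = 0.0196). With D493N -0.56 was called without wild-type replicate 1 or 2 (0.0235 and 0.0215). The difference between the cwo probe sets, second minus first, was -1.06, -0.57 and -1.02 (adjusted p = 0.0287, 0.11 and 0.0258), from the same fit over 748 genes. Without control replicate 1 or 2 the wild-type EYA value was -1.06 and -1.07 (adjusted p = 0.116 and 0.143) and the E728Q value -1.01 and -1.02 (0.113 and 0.127), no longer called. The wild-type call was also lost without wild-type replicate 2 (-0.82, adjusted p = 0.127) or either E728Q array (0.0523 each), and the E728Q call without E728Q replicate 1 (0.0857) or 2 (0.112). The mean of the probe sets of cwo gave 0.05, -0.27 and 0.11 in the same order, none called.

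The genes of the opposite phase did not fall as a pair. Clk, the activator that dimerizes with CYCLE, had signals of 361 and 330 in control, 375 and 419 on wild-type EYA arrays, 413 and 341 on D493N arrays, and 276 and 238 on E728Q arrays. The E728Q arrays were below all others, and those of the other groups overlapped or lay close together. Against control the log2 values were 0.22 (95% interval -0.08 to 0.52, adjusted p = 0.289), 0.08 (-0.22 to 0.38, adjusted p = 0.693) and -0.41 (-0.71 to -0.11, adjusted p = 0.0554), none called. The E728Q value crossed the threshold, at the same size, without D493N replicate 1 (adjusted p = 0.0303) or 2 (0.0294) and in the fit of control and E728Q alone (0.0427). Against wild-type EYA the E728Q value was -0.63 (adjusted p = 0.0876). In the fit of all arrays Clk was not called lower in any comparison, though both E728Q arrays lay below both control arrays. The gene vri, whose product is known to repress Clk, was higher in each EYA group. Whether the rise of vri acted on Clk was not tested.

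The light-input gene cry, which encodes the blue-light sensor cryptochrome, showed a small rise of like size with each transgene. Its signals were 1236 on both control arrays, 1541 and 1614 on wild-type EYA arrays, 1653 and 1532 on D493N arrays, and 1619 and 1567 on E728Q arrays, with no overlap between EYA and control arrays. The rise of cry was 0.38 on the log2 scale (SE 0.0867, adjusted p = 0.0132), 0.29 (adjusted p = 0.0341) and 0.33 (adjusted p = 0.024). No pair of transgenes differed by more than 0.09, and none was called. With wild-type EYA the call survived neither the omission of control replicate 1 (adjusted p = 0.108), nor that of wild-type replicate 2 (0.115). That with D493N was lost without control replicate 1 (0.198), control replicate 2 (0.0763), D493N replicate 1 (0.0957), or either array of the wild-type (0.0508 and 0.051) or E728Q group (0.0592 and 0.0591). The E728Q call was lost without control replicate 1 (0.163) or 2 (0.065) or E728Q replicate 1 (0.119) or 2 (0.0985), and that for the mean (0.33, adjusted p = 0.00661) without control replicate 1 (0.0959).

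The non-cycling genes were not called in any comparison and lay near their control level. The partner gene cyc had signals of 695 and 706 in control and 701 to 906 over the EYA arrays, the highest on D493N replicate 1. Its log2 fold changes were 0.07, 0.13 and 0.02 (adjusted p = 0.712, 0.442 and 0.915), with 95% intervals between -0.23 and 0.39. The kinase gene dbt, whose product phosphorylates PERIOD, had 2457 and 2120 in control and 2197 to 2519 over the EYA arrays. The dbt log2 fold changes were 0.01, 0.02 and 0.09 (adjusted p = 0.95, 0.869 and 0.448), with 95% intervals between -0.16 and 0.25. Neither gene was called between transgenes.

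Setting the arms of the clock side by side gave an uneven picture. Each gene's log2 signal was taken relative to its control mean and averaged within a class on each array, as a description with no test. The E-box targets per, tim, vri, Pdp1 and cwo averaged 0.85 and 0.82 on the wild-type EYA arrays, 0.84 and 1.11 on the D493N arrays and 0.81 and 0.79 on the E728Q arrays, with control arrays at -0.04 and 0.04. Without per they averaged 0.53 to 0.85 on the EYA arrays, and with the second probe sets of tim and cwo in place of the first, 0.61 to 0.99. Clk and cry averaged 0.22 and 0.38, 0.28 and 0.10, and 0.02 and -0.10. The gap between E-box targets and these opposite-phase genes was 0.63 and 0.44 on the wild-type EYA arrays, 0.56 and 1.02 on the D493N arrays and 0.79 and 0.89 on the E728Q arrays. Without per this gap was 0.325 and 0.152, 0.266 and 0.752, and 0.544 and 0.627. The D493N arrays were the least alike in this gap. Replicate 1 of that group was the lower one for tim and for the first cwo probe set, and the higher one for Clk and cry. The repressor genes per, tim, vri and cwo exceeded the activator genes Clk, cyc and Pdp1 by 0.93 and 0.77, 0.34 and 0.65, and 0.82 and 0.92. Without per these gaps were 0.59 and 0.43, -0.06 and 0.28, and 0.52 and 0.60. A change of phase would be read from a time course, and the labels give no hour of collection, so no phase was estimated.

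**Figure D5:**
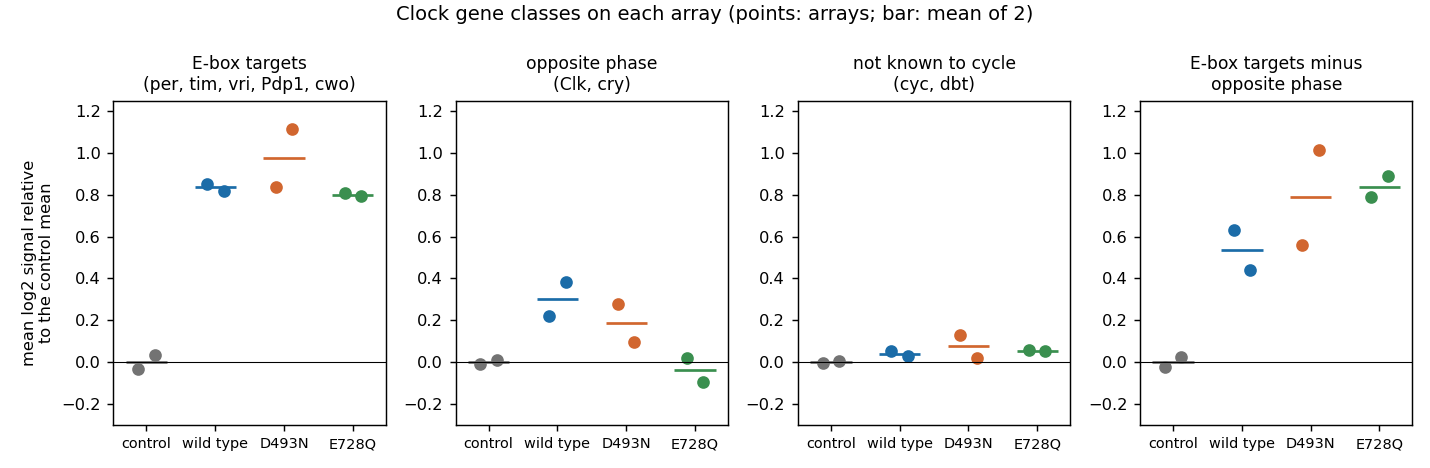
Mean log2 signal of clock gene classes on each array, relative to the control mean of each gene, with a point per array and a bar at the group mean. The E-box targets lie between 0.79 and 1.11 on the EYA arrays, the opposite-phase genes between -0.10 and 0.38, and the non-cycling genes between 0.02 and 0.13.

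Between transgenes few clock genes were called. With E728Q against wild-type EYA, 0 of 9 passed, against 0.710% of all tested probe sets, and with E728Q against D493N 0 of 9, against 0.169%. At an unadjusted p under 0.05 these counts were 4, against 10.5% of tested probe sets, and 5, against 13.1%, with no test of either count. The nearest to the threshold were those of the first tim probe set, at -0.50 (adjusted p = 0.065) and -0.64 (adjusted p = 0.0592). Over the 8 arrays the log2 signals of per and vri correlated with r = 0.963, those of per and cry with 0.893 and those of per and Pdp1 with 0.608. Those of vri and Clk gave -0.224, all as descriptions over arrays that share the same 4 groups.

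Further genes of the clock system, in lists chosen with earlier results of these data known, moved in both directions. Of 13 regulators of protein stability and phosphorylation 8 were measured, and 2 rose and 1 fell with each transgene, where the shares over all tested probe sets would give 0.912 to 1.12 higher and 0.875 to 1.11 lower among 8. These counts lie near the background, as do most of those of the lists that follow. Usp8, a deubiquitinase that acts on CLOCK, had signals of 1076 and 1032 in control and 1373 to 2919 on the EYA arrays, with the lowest on D493N replicate 1. Its log2 fold change was 1.19 (adjusted p = 0.00406), 0.73 (0.0319) and 1.40 (0.00165). With D493N replicate 1 left out the D493N value was 1.16, and with replicate 2 left out 0.31. Pp1-87B, a catalytic subunit of protein phosphatase 1, rose by 0.24 (adjusted p = 0.0251), 0.26 (0.0149) and 0.30 (0.00984), and Cul3, a ubiquitin ligase scaffold, had values of -0.31 (0.0237), -0.40 (0.00595) and -0.33 (0.0186). Of 7 cofactors 2 rose and 1 fell with each, where the background shares would give 0.798 to 0.983 and 0.766 to 0.973. The RNA-binding protein gene lark rose by 0.71 (adjusted p = 0.00111), 0.77 (0.000551) and 0.78 (0.000643), and Atx2, which promotes translation of per, by 0.26 (0.0343), 0.45 (0.00179) and 0.35 (0.00866). The coactivator gene nej had values of -0.52 (0.00961), -0.66 (0.00245) and -0.47 (0.0154). With the mean of its probe sets nej had -0.46, -0.21 and -0.23 and was called with none of the transgenes (adjusted p = 0.0828, 0.407 and 0.376). On the deposited values without quantile normalization, Pp1-87B and Atx2 had 0.12 and 0.14 with wild-type EYA and were not called (adjusted p = 0.428 and 0.341).

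Among 12 neuropeptide and membrane output genes, higher and lower calls numbered 3 and 1 for wild-type EYA, 3 and 1 for D493N and 2 and 1 for E728Q, where the background shares would give 1.37 to 1.69 and 1.31 to 1.67. Pdf, the main neuropeptide of the pacemaker neurons, had signals of 1669 and 1650 in control, 2553 and 2495 on wild-type EYA arrays, 2930 and 3302 on D493N arrays, and 2485 and 2449 on E728Q arrays, with no overlap. Its log2 fold change was 0.64 (adjusted p = 0.000355), 0.85 (6.05e-05) and 0.54 (0.000949). The sodium leak channel gene na rose by 1.23 (adjusted p = 0.0141), 1.18 (0.0139) and 1.01 (0.0328) from control signals of 29.6 and 16.1, close to the pseudocount of 17.5, and by 0.41 to 1.62 over the alternatives. The potassium leak channel gene Ork1 had -0.55 (0.0325) with wild-type EYA and -0.60 (0.0223) with E728Q. The channel subunit gene unc79 was at 0.42 (0.0292) with wild-type EYA. With D493N the neuropeptide gene Dh44 had 0.30 (0.0185) and the PDF receptor gene Pdfr -0.37 (0.0389). Of 5 light-input genes 4 were measured, of which 0, 1 and 1 were higher and 0, 0 and 1 lower, where the background shares would give 0.456 to 0.562 and 0.438 to 0.556. The gene jet, whose F-box product targets TIMELESS after light, had 0.60 (0.0483) with D493N and 0.82 (0.0159) with E728Q, and the opsin gene Rh7 had -0.47 (0.0189) with E728Q, or -0.35 and uncalled with the mean of its probe sets (0.17).

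Of 11 head transcripts known to cycle 10 were measured, with 4 higher and 1 lower for wild-type EYA, 2 and 1 for D493N and 4 and 1 for E728Q, where the background shares would give 1.14 to 1.40 and 1.09 to 1.39. The zinc finger gene sug had signals of 392 and 341 in control and 1561 to 2245 on the EYA arrays, a log2 fold change of 2.25, 2.20 and 2.36 (adjusted p = 1.14e-05, 1.04e-05 and 8.5e-06). Inos, an enzyme of inositol synthesis, rose by 0.83 (adjusted p = 0.000856) with wild-type EYA and 0.61 (0.00361) with D493N. Slob, which binds the Slowpoke potassium channel, had signals of 2303 and 2271 in control, 3984 and 3678 on wild-type EYA arrays, 2418 and 4428 on D493N arrays, and 4673 and 4633 on E728Q arrays. It rose by 0.80 (adjusted p = 0.0256) with wild-type EYA and 1.02 (0.00793) with E728Q, and had 0.47 (0.138) with D493N. With the mean of its probe sets Slob had 0.47 with wild-type EYA, no longer called (adjusted p = 0.0693), and 0.56 with E728Q (0.0374). The D493N arrays differed for Slob as they did for Usp8, with replicate 1 the one closer to control. Cyp4d21, a cytochrome P450 gene, had 0.61 (0.0328) with wild-type EYA and 0.63 (0.0283) with E728Q, Cyp18a1, a P450 that inactivates ecdysone, -0.55 (0.00721) with D493N, and the transporter gene E23 -0.64 (0.00825) with E728Q. Over these lists 43 changes are named, of which 14 were called under all alternatives, those of lark, Pdf, sug and Inos among them. For 28 the call was lost when a single array was left out, with adjusted p up to 0.255. These included every change named for Cul3, Pp1-87B, na, Ork1, Cyp4d21, Slob, jet, unc79, Dh44, Pdfr, Rh7, Cyp18a1 and E23, those of Atx2 and nej with wild-type EYA and E728Q, and that of Usp8 with D493N.

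The genes most like 4 clock genes across the arrays were taken by Pearson r of log2 signals over the 8 arrays, as a description. For per they were Prp40 (r = 0.997), SCCRO4 (0.996) and spas (0.996). Prp40 went from signals of 192 and 208 in control to 1361 to 1883 on the EYA arrays. For vri they were Tab2 (0.999), mthl8 (0.998) and mbl (0.997), with Tab2 at 1350 and 1251 in control and at 2023 to 2434 on the EYA arrays in the same order of groups as vri. For the first tim probe set they were Nup133 (0.968), Fancd2 (0.962) and eIF3j (0.927), and for Clk they were Pu (0.944), daed (0.940) and Scox (0.939).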

How the data were processed

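Labelled cRNA from 8 head samples was hybridised to Affymetrix arrays. The files deposited by the authors hold 1 linear intensity per probe set and array, scaled to an array median of 100. Per the submitters' processing notes GCOS was used, while the sources used here give neither its version nor its background correction and summary. Each sample was RNA of 200 heads extracted as 4 lots of 50, of which 2 µg was labelled, per the labels. Control features of the array (183) were not used. Signals were quantile normalized, since trimmed array means differed by 11.8%, a pseudocount of 17.5 (the 25th percentile) was added, and log2 values were fitted for the top 60% of probe sets by mean signal (38.1 or more). Fold changes are on that log2 scale, which understates changes of low genes, while signals printed are deposited values.

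All 8 arrays entered one group-means fit (limma 3.58.1, R 4.3.3), with 4 residual and 4.75 prior degrees of freedom and a variance trend (no trend for differences between probe sets). P-values were two-sided, and in each of 7 comparisons they were adjusted by Benjamini-Hochberg across every tested probe set. The code was tested on simulated data. Symbols came from the array annotation (13647 probe sets with 1 symbol, 402 with several, 4903 unlisted), updated by gene identifier to the Release 6 plus ISO1 MT annotation. The number of arrays limits the precision. Named were all members with all their probe sets, up to 4 called genes of largest change per list and comparison, and the 3 genes most like per, tim, vri and Clk. The members and lists were chosen with earlier results of these data known. Alternatives changed the pseudocount, normalization, filter, probe set rule, variance model, arrays fitted and replicate block, or left out each array.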

Additional observations from a re-analysis of the deposited data

Results flagged for a closer look

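For 2 results the effect of one transgene differed from that of another in the test of the difference itself. Pdp1 was higher with D493N than with wild-type EYA by a log2 difference of 0.95 (adjusted p = 0.0196), with both D493N arrays (2505 and 3289) above both wild-type arrays (1346 and 1436). The tim probe sets differed from each other more with E728Q than with D493N, by 1.32 on the log2 scale (second minus first, adjusted p = 0.0347). Both E728Q arrays lay above both D493N arrays in that difference, but the tim fit was chosen after these values were seen. Neither call was stable, with that of Pdp1 lost under 6 of 17 alternatives and that of tim under 11 of 16. With 2 arrays per group, single arrays were not examined as outliers. The D493N arrays had the highest Act5C 3' to 5' ratios, 5.63 and 6.26, whose part in either difference was not tested.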

How the results depend on the processing

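The numbers of replicates could not be shown to pair arrays, since same-numbered deviations of the groups correlated between -0.14 and 0.094. With a replicate block the clock genes called were 5 for wild-type EYA, 4 for D493N and 5 for E728Q against control (5, 5 and 4 without it), as cry with D493N was lost (adjusted p = 0.0552) and Pdp1 with E728Q gained (0.0343). Leaving out each array gave counts of 3 to 5 with wild-type EYA, 2 to 6 with E728Q, 3 to 6 for the mean, 0 to 2 for D493N against wild-type EYA, 0 to 2 for E728Q against wild-type EYA and 0 to 3 for E728Q against D493N. These counts take both directions together, and the highest with E728Q included Clk as lower (-0.41, without D493N replicate 1 or 2). D493N against wild-type EYA gave 0 without the variance trend and 0 with only the groups compared, and E728Q against wild-type EYA gave 1 with only the groups compared. Uncalled values changed sign under some settings, and leaving out each array gave ranges of -0.04 to 0.06 for dbt with wild-type EYA (also -0.04 with deposited values), -0.03 to 0.07 with D493N and -0.01 to 0.09 for the mean. The ranges were -0.02 to 0.28 for cyc with D493N, -0.03 to 0.08 (0.00 without E728Q replicate 2) with E728Q, -0.04 to 0.20 for Clk with D493N and -0.07 to 0.00 for the mean. The first tim probe set with E728Q ranged from -0.01 to 0.08 (-0.03 with deposited values, and 0.73 and called with the mean of its probe sets), and the first of cwo with D493N from -0.23 to 0.26. With the mean of its probe sets cwo was -0.27 with D493N and -0.04, a called value turned, for the mean of the EYA groups. The cwo probe set difference for E728Q against wild-type EYA ranged from -0.19 to 0.29. The cause was not tested. The rise of per and vri against control kept its call throughout. The number of arrays limits the precision, and signal over background was not tested, with a lowest clock gene signal of 178 at an array median of 100.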
